A study of Rattus norvegicus with 36 samples.

Results

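This comparison set norepinephrine directly against dibutyryl cyclic AMP in rat pineal organ culture, with 3 norepinephrine (NE) and 3 dibutyryl cyclic AMP (DBcAMP) libraries of the 36 libraries in the series. The members were chosen by their treatment labels alone, and no Untreated library entered the test. All glands came from Sprague-Dawley rats, and those cultured were from females aged 2 to 3 months kept in a 14:10 light:dark cycle. Glands were held in culture for 48 hours and then received 1 µM NE or 500 µM DBcAMP for 6 hours, with Untreated glands held in parallel. Each library was made from a pool of 3 glands, so the values describe pools and not single animals. The doses were not matched, so differences between the agents and between their doses cannot be told apart. For reference the report also uses the 3 Untreated libraries. It further uses 3 night and 3 day libraries each from glands of rats with no surgery (Control) and with neonatal sham surgery (Sham). The corresponding libraries are used of rats whose superior cervical ganglia were decentralized (DCN) or removed (SCGX) on both sides as neonates. Single libraries of day pineal gland, night pineal gland and mixed tissue are also used. The Control, Sham, DCN and SCGX groups held male and female rats, killed at mid-day or midnight. These rats were younger than the females whose glands were cultured. Comparisons of cultured glands with these groups therefore also differ in the age and sex of the rats.

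Norepinephrine is the transmitter that sympathetic nerves from the superior cervical ganglia release in the pineal gland at night. It acts on pinealocytes through beta-adrenergic receptors, which raise cyclic AMP, and through alpha-adrenergic receptors, which raise calcium and activate protein kinase C. Cyclic AMP activates protein kinase A, which phosphorylates the transcription factor CREB, and this pathway drives the nightly rise in melatonin synthesis. DBcAMP is a cell-permeable cyclic AMP analog that enters cells and bypasses the receptors. The comparison therefore asks which transcripts differ when this analog is supplied in place of the transmitter.

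The 6 libraries held between 12556861 and 15181103 read-pairs on genes, with a share of 12.76% to 14.38% going to the top 10 genes of each library. The tables listed 29516 genes, of which 21525 had a count in these libraries. Replicates of a group differed by more than counting noise in every pair, with chi-square per degree of freedom between 6.12 and 8.65, so no library was a repeat of another. Among the 500 genes that varied most over the 9 cultures, the first principal component held 68.8% of the variance and ordered the groups as Untreated (-29.7 to -27.3), NE (7.9 to 9.7) and DBcAMP (17.5 to 20.7). The second component held 12.5% and set the NE libraries (10.7 to 12.4) apart from the DBcAMP libraries (-10.7 to -7.7), with Untreated between them (-3.7 to -1.0). On the RPKM scale, which is per length, 177 genes that were over 8-fold higher in pineal gland than in mixed tissue had medians between 11.7 and 15.5 in the 6 libraries, and 2135 genes over 8-fold higher in mixed tissue had medians between 0.0491 and 0.0628.

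DBcAMP gave higher levels than NE for more genes than the reverse at the threshold used, and the called differences over 4-fold were all in that direction. Of 15029 genes tested, 154 differed between NE and DBcAMP at an adjusted p under 0.001 by edgeR's quasi-likelihood test, which is 1.02% of those tested. Of these, 134 were higher with DBcAMP (0.892%) and 20 were higher with NE (0.133%). A fold change over 2 was seen in 73 genes higher with DBcAMP and 6 higher with NE, and a fold change over 4 in 20 and 0 genes. Past 8-fold there were 9 genes and past 16-fold 5, each higher with DBcAMP. At an adjusted p under 0.05 the counts were 670 higher with DBcAMP and 242 higher with NE, of which 29 and 2 passed 4-fold, respectively. At an unadjusted p under 0.05 the split was more even, with 1666 higher with DBcAMP and 1351 higher with NE, of which 237 and 94 passed 2-fold and 32 and 3 passed 4-fold. DESeq2 also called 0 genes over 4-fold higher with NE and 19 over 4-fold higher with DBcAMP.

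The number of calls rested on single libraries, while in every setting most calls were higher with DBcAMP. Without NE replicate 1 there were 56 calls, without NE replicate 2 there were 50, without NE replicate 3 there were 80 and without DBcAMP replicate 1 there were 79. Of these, 53, 48, 70 and 74 were higher with DBcAMP. Over all 15 alternative settings the share of calls that were higher with DBcAMP lay between 79.1% and 96.6%, against 87.0% as reported. None of the 154 genes turned its direction where it was tested. Leaving out a library could not have turned it, because the NE and DBcAMP libraries did not overlap for any of these genes.

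**Figure D1:**
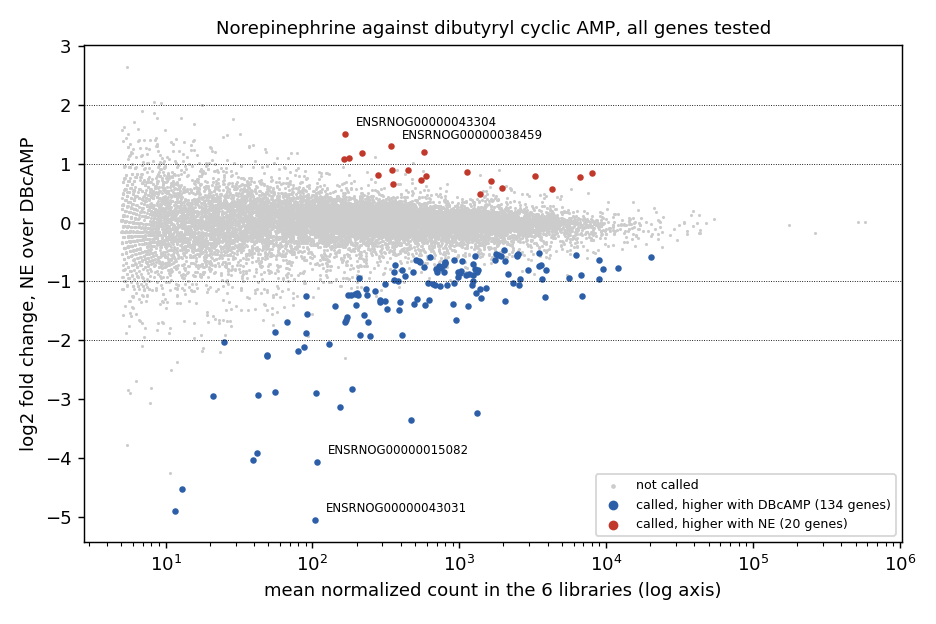
Log2 fold change of NE over DBcAMP (y axis) against the mean normalized count in the 6 libraries (x axis, log scale), 1 point per gene tested; coloured points passed an adjusted p under 0.001 and dotted lines mark 2-fold and 4-fold changes. The 20 genes higher with NE lie between 0.49 and 1.51, whereas the 134 genes higher with DBcAMP reach -5.05.

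For all 154 genes the lowest library of the higher group lay above the highest library of the lower group, as it did for 25.5% of all genes tested (3828 genes). The typical difference was modest in both directions. The median log2 fold change was -1.06 for the 134 genes higher with DBcAMP and 0.82 for the 20 genes higher with NE, against 0.01 over all genes tested. Most genes showed little difference between the agents, and 91.2% of the genes tested had estimates within 1.5-fold. An estimate within that range does not show that the agents act alike on a gene.

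The tables identify genes by Ensembl identifier only, so the transcripts at either end are given by identifier. The largest fold change on the DBcAMP side was that of ENSRNOG00000043031, which was scarce with NE. It had 16.1, 14.2 and 15.9 CPM (read-pair counts scaled to the library's total and its TMM factor) in the DBcAMP libraries, from 193, 181 and 201 read-pairs. In the NE libraries it had 0.205, 0.229 and 0.928 CPM, from 3, 3 and 13 read-pairs, and in the Untreated libraries 0.0646, 0.129 and 0.312 CPM. Every DBcAMP library was thus far above every NE and Untreated library, while NE and Untreated overlapped. The difference was 33.1-fold, with a log2 fold change of NE over DBcAMP of -5.05 ± 0.31 (SE, n = 3 per group, edgeR quasi-likelihood adjusted p = 1.31e-06). NE replicate 3 held most of the NE counts, and without it the log2 fold change was -6.09.

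This transcript was also scarce in the glands of living rats. Its mean was 0.672 ± 0.259 CPM (SD, n = 3) in Control night glands and 0.882 ± 0.613 CPM in Control day glands, and the night/day log2 fold change was -0.43 ± 0.57 (SE; edgeR adjusted p = 0.599). In Sham glands the log2 fold change was -0.54 ± 0.33 (edgeR adjusted p = 0.293). The single libraries gave 0.9 CPM in day pineal gland, 0.72 CPM in night pineal gland and 6.71 CPM in mixed tissue. The levels reached with DBcAMP in culture were above those in every pineal gland library that had not been cultured, although the culture and in vivo tables were scaled separately.

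Among calls averaging 50 or more normalized counts, the next by size was ENSRNOG00000015082, which had 23.3, 12.4 and 10.8 CPM with DBcAMP. With NE it had 0.478, 1.75 and 0.571 CPM, and in Untreated glands 0.71, 0.707 and 0.677 CPM. The DBcAMP libraries lay above all others, although DBcAMP replicate 1 was well above its group. The log2 fold change of NE over DBcAMP was -4.06 ± 0.40 (SE, n = 3 per group, edgeR adjusted p = 6.06e-05). Without NE replicate 1 it was -3.74 with an edgeR adjusted p of 0.00112, above the threshold. Against Untreated glands, the log2 fold change was 4.45 ± 0.33 with DBcAMP (edgeR adjusted p = 3.84e-07) and 0.39 ± 0.47 with NE (edgeR adjusted p = 0.579). In glands taken directly from Control, Sham, DCN and SCGX rats it did not exceed 0.365 CPM in any library, and it fell below the count minimum for testing night against day.

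On the NE side the differences were smaller and arose at moderate levels. ENSRNOG00000043304 had 17.5, 20.3 and 18.1 CPM with NE, 6.6, 4.72 and 8.31 CPM with DBcAMP, and 16.8, 20.1 and 12.4 CPM in Untreated glands. The NE and Untreated libraries overlapped, and the DBcAMP libraries lay below both. The log2 fold change of NE over DBcAMP was 1.51 ± 0.17 (SE, n = 3 per group, edgeR adjusted p = 0.000201), or 2.85-fold. Against Untreated glands it was -1.33 ± 0.21 with DBcAMP (edgeR adjusted p = 0.000288) and 0.19 ± 0.15 with NE (edgeR adjusted p = 0.372). The edgeR adjusted p of the direct comparison was 0.00164, 0.003, 0.00107 and 0.00151 without NE replicate 1, 2 or 3 or DBcAMP replicate 1, so the call was lost in each case while the log2 fold change stayed between 1.46 and 1.55.

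ENSRNOG00000038459 had 38.7, 44.4 and 28.7 CPM with NE and 16.5, 16.2 and 12.7 CPM with DBcAMP. The Untreated libraries had 30.2, 24.9 and 14.1 CPM, a spread that reached into both treated groups. The log2 fold change of NE over DBcAMP was 1.30 ± 0.15 (SE, n = 3 per group, edgeR adjusted p = 0.000234). Neither agent alone passed the threshold against Untreated, with log2 fold changes of 0.70 ± 0.20 with NE (edgeR adjusted p = 0.0154) and -0.61 ± 0.22 with DBcAMP (edgeR adjusted p = 0.0437). The call in the direct comparison was lost without NE replicate 1 (edgeR adjusted p = 0.00254), NE replicate 2 (0.00272) or DBcAMP replicate 1 (0.00136).

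Both of these transcripts were lower at night in Control glands, although they were higher with NE than with DBcAMP in culture. The night/day log2 fold change was -1.75 ± 0.24 for ENSRNOG00000043304 (edgeR adjusted p = 0.000645) and -1.61 ± 0.13 for ENSRNOG00000038459 (edgeR adjusted p = 3.12e-05). In Sham glands the corresponding values were -0.35 ± 0.62 (edgeR adjusted p = 0.74) and -0.30 ± 0.15 (edgeR adjusted p = 0.204). For ENSRNOG00000043304 the Sham libraries were spread widely, from 14.3 to 47.8 CPM by day and from 8.72 to 31.0 CPM at night. In the single libraries, ENSRNOG00000043304 had 6.7 CPM in day and 17.0 CPM in night pineal gland, the reverse of Control. ENSRNOG00000038459 had 24.4 and 12.8 CPM in the same order, the direction seen in Control. The difference between Control and Sham was not tested.

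**Figure D2:**
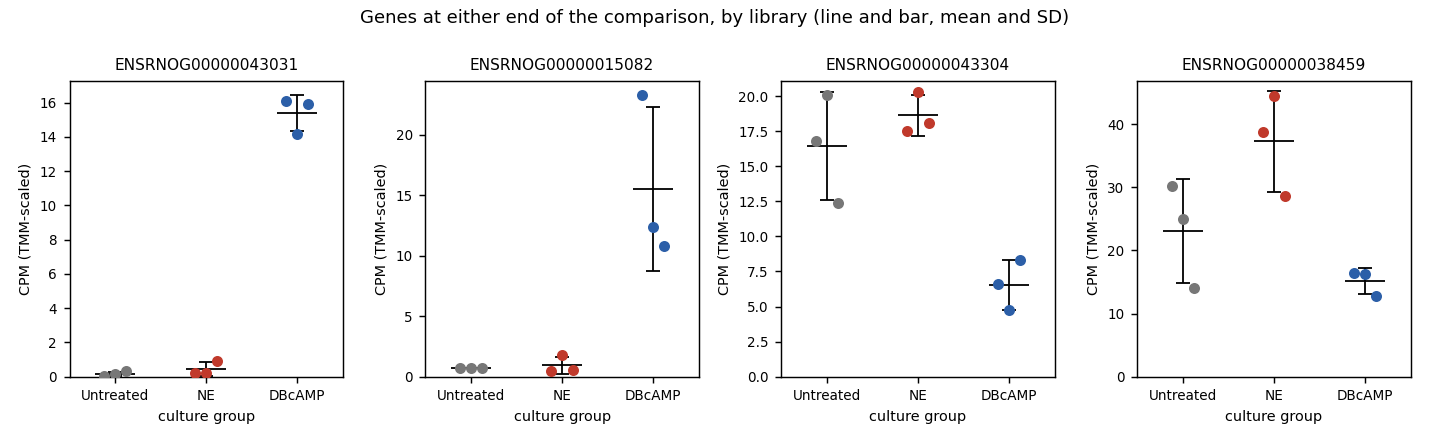
CPM scaled by TMM (y axis, starting at 0) in each Untreated, NE and DBcAMP library (points, 3 per group) for the 2 genes with the lowest and the 2 with the highest NE over DBcAMP ratios among calls averaging 50 or more normalized counts; lines and bars give the mean and SD. For the first pair NE lies near Untreated and DBcAMP far above, and for ENSRNOG00000043304 NE lies near Untreated and DBcAMP below.

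The mean of the Untreated glands gives each difference a position against a baseline, which is not a call. These values share libraries with the comparison that chose the genes, so they describe the genes and are not independent evidence. Of the 134 genes higher with DBcAMP, the mean of the Untreated libraries lay below both agents for 115 genes, between them for 17 and above both for 2. Of the 20 genes higher with NE the corresponding numbers were 7, 7 and 6. Over all 15029 genes tested they were 5991, 2499 and 6539. The genes higher with DBcAMP thus mostly had their lowest mean in Untreated glands, while those higher with NE were spread over all 3 positions. Of the 115 genes, 111 could be tested with NE against Untreated. Of these, 37 were called higher with NE, and 69 were higher at an unadjusted p under 0.05 by edgeR. Estimates within 1.5-fold of Untreated were found for 69 of the 111 genes. That share was smaller than the 12436 of 14888 among all genes tested both between the agents and with NE against Untreated.

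DBcAMP against Untreated accounted for most calls among the 134 genes. Of these, 130 were called higher with DBcAMP than Untreated and 0 lower by edgeR (1 at an unadjusted p under 0.05), where 9.62% of all genes tested in that comparison were called higher and 7.08% lower. With NE against Untreated, 37 of the 130 that could be tested were called higher and 3 lower, where 6.69% of all genes were called higher and 4.65% lower. The 37 genes called higher with NE were also called higher with DBcAMP. A further 93 genes were called higher with DBcAMP without a call in either direction with NE. These 93 include the 4 genes that could not be tested with NE. The median log2 fold change over Untreated was 1.46 with DBcAMP and 0.31 with NE. Of the 130 genes tested with NE, 84 had estimates within 1.5-fold of Untreated, a smaller share than the 12436 of 14888 over all genes. With NE, 69 of the 130 were higher than Untreated and 4 lower at an unadjusted p under 0.05 by edgeR.

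The 20 genes over 4-fold higher with DBcAMP had a low median level with NE and in Untreated glands. Their median RPKM was 4.81 with DBcAMP, 0.483 with NE and 0.542 in Untreated glands, against 9.56, 9.86 and 10.9 over all genes tested. Against Untreated glands, 18 of the 20 were called higher with DBcAMP, and 1 of the 16 that could be tested was called higher with NE and 1 lower. Of those 16, 7 had estimates with NE within 1.5-fold of Untreated, 3 were over 2-fold higher, and 8 had an unadjusted p under 0.05. Over all 14888 genes so tested the counts were 12436, 658 and 5986. The gene called lower with NE had a log2 fold change of -3.02 against Untreated and 0.91 with DBcAMP, so its large difference between the agents arose mainly on the NE side. Several rested on few read-pairs, with libraries at 0 CPM among both the Untreated and the NE glands, and with a minimum of 10 read-pairs in every library 11 genes passed 4-fold.

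Of the 20 genes higher with NE, 10 were called lower with DBcAMP than Untreated and 5 higher, where 7.08% and 9.62% of all genes tested were. With NE against Untreated 8 were called higher and 1 lower, where 6.69% and 4.65% of all genes were. Of the 10 genes called lower with DBcAMP, 9 had no call with NE. The 10 include all 6 genes with Untreated above both agents, and these 6 were lower with NE at an unadjusted p under 0.05 by edgeR. At that threshold 11 of the 20 genes were higher with NE than Untreated and 6 lower. The median log2 fold change over Untreated was 0.29 with NE and -0.62 with DBcAMP.

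**Figure D3:**
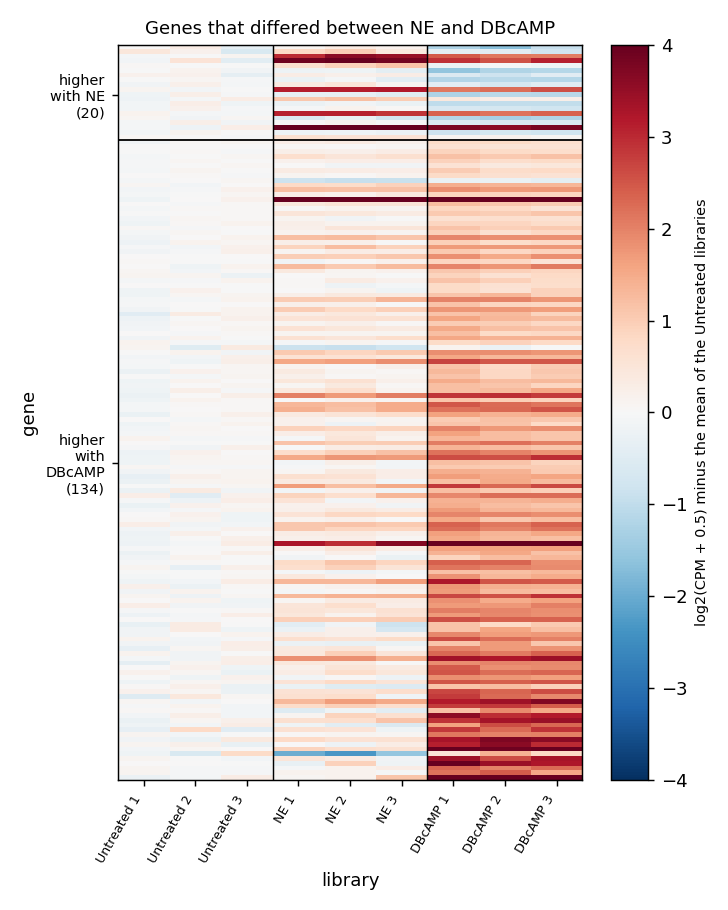
Each row is 1 of the 154 genes that differed, each column 1 of the 9 culture libraries, and colour gives log2(CPM + 0.5) minus the mean of the Untreated libraries, limited at 4 in either direction. The 134 rows below the line are mostly red with DBcAMP and pale with NE, and the 20 rows above it split between rows red with both agents and rows blue with DBcAMP.

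The night and day glands of living rats, which were not used to choose these genes, showed how the same transcripts differed between night and day. The part of NE release in those differences was not tested. Of the 20 genes higher with NE, 9 (45.0%) were called higher at night in Control glands and 2 lower, where 6.37% of the 15622 genes tested there were called higher and 3.02% lower. In Sham glands 6 were called higher at night and 1 lower, where 1.65% of the 16050 genes tested were called higher and 0.623% lower. Of the 134 genes higher with DBcAMP, 119 could be tested in Control glands, and 22 (18.5%) were called higher at night and 9 (7.56%) lower. In Sham glands 121 could be tested, and 6 (4.96%) were called higher and 3 (2.48%) lower. The median night/day log2 fold change of the genes higher with NE was 0.44 in Control and 0.35 in Sham, and that of the genes higher with DBcAMP was 0.09 and 0.19, against -0.03 and -0.05 over the same comparison for all genes.

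The counts of night calls moved with single libraries. Leaving out a Control library in turn left 7 or 8 of the 20 genes called higher at night, and leaving out a Sham library left 3 to 7. For the genes higher with DBcAMP the count was 14 to 21 in Control, with 14 without day replicate 2. In Sham it was 1 without any of the day replicates or without night replicate 1, 4 without night replicate 2 and 10 without night replicate 3. The list of genes higher with NE also changed with the culture library left out. Without NE replicate 2 it held 2 genes, of which 0 were called higher at night in Control, and without DBcAMP replicate 2 it held 13, of which 2 were.

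The night calls were also counted by the place of the Untreated mean, which is a position and not a call against Untreated. All 7 genes higher with NE for which Untreated lay below both agents were called higher at night in Control, with log2 fold changes between 1.48 and 7.46. In Sham the same genes had values between 1.49 and 7.88, and 5 were called. These 7 genes were also all called higher with NE than Untreated, and of the 1018 genes so called, 54.0% of the 1008 that could be tested were called higher at night in Control (22.4% in Sham). Of the 115 genes higher with DBcAMP for which Untreated lay below both agents, 22 of 102 tested (21.6%) were called higher at night in Control, where 39.5% of the genes called higher with DBcAMP than Untreated were. Leaving out any Control library left 6 of the 7 called, and leaving out a Sham library left 3 to 6.

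The 7 genes, which by their choice were lowest in Untreated and highest with NE, covered a wide range of levels. The most abundant of them had 92.8, 81.0 and 86.2 CPM in Untreated glands, 379, 410 and 521 CPM with DBcAMP and 775, 774 and 797 CPM with NE. No library of a group reached into another group, and the log2 fold change of NE over DBcAMP was 0.84 ± 0.10 (SE, n = 3 per group, edgeR adjusted p = 0.000317). This gene also had the largest night/day difference of the 7 in both Control (7.46) and Sham (7.88). The median difference between the agents over the 7 genes was 0.80 on the log2 scale, small beside their median log2 fold changes over Untreated of 3.17 with NE and 2.33 with DBcAMP. The calls in the direct comparison lay near the threshold, and 0 to 5 of the 7 were called when a single culture library was left out.

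In rats whose superior cervical ganglia had been decentralized or removed, the night/day ratio of these 7 genes had a lower median than in Control or Sham. The median log2 ratio of mean CPM, computed with 0.5 CPM added, was 1.87 in Control and 3.54 in Sham, against 0.33 in DCN and -0.52 in SCGX. Single genes departed from the medians, with ranges of 1.5 to 7.40 in Control, 1.56 to 7.85 in Sham, -0.21 to 1.64 in DCN and -1.27 to 0.94 in SCGX. Across the 134 genes higher with DBcAMP the medians were 0.07, 0.20, -0.01 and 0.05 in the same order. The DCN and SCGX values were not tested.

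For the 7 genes higher with NE with Untreated between the agents, 2 were called higher and 2 lower at night in Control, and 1 was called higher in Sham. For the 17 genes higher with DBcAMP with Untreated between the agents, 0 of 15 tested were called in Control or Sham by edgeR, where 6 and 3 had an unadjusted p under 0.05. For the 6 genes higher with NE with Untreated above both agents, 0 were called in Control by edgeR (2 at an unadjusted p under 0.05) and 1 was called lower in Sham. Both genes that were higher with DBcAMP and highest in Untreated were called lower with NE than Untreated, and 1 of them was called lower at night in both Control (-5.46) and Sham (-5.18).

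**Figure D4:**
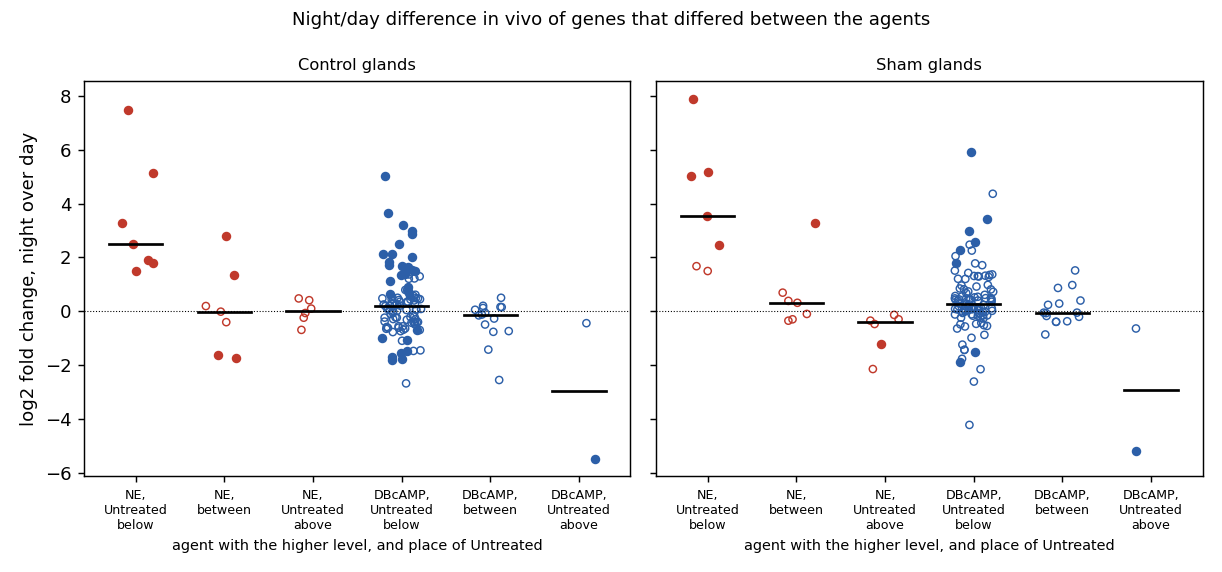
Night over day log2 fold change (y axis) in Control (left) and Sham (right) glands for each gene that differed between the agents and could be tested there, grouped by the agent with the higher level and the place of the Untreated mean; filled points passed an adjusted p under 0.001 and lines are medians. The 7 genes in the leftmost column all lie at or above 1.48, while the other groups have medians near or below 0.31.

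Many of the genes with the largest DBcAMP excess were hardly detected in uncultured glands. Of the 20 genes over 4-fold higher with DBcAMP, 10 fell below the count minimum in Control glands, as did 15 of all 134 genes higher with DBcAMP (11.2%). This held for 0 of the 20 genes higher with NE and for 2.87% of all genes tested in culture (432 genes). Choosing genes by a large DBcAMP excess favours those scarce without DBcAMP, so a share above that of all genes was partly built in. In culture, 4 of the same 20 genes over 4-fold higher with DBcAMP fell below the minimum in NE and Untreated glands. Of the 20 genes over 4-fold higher with DBcAMP, 8 (40.0%) were over 8-fold higher in mixed tissue than in pineal gland and 1 (5.0%) the reverse. Over all genes tested the shares were 4.37% and 2.58%. Of the 20 genes higher with NE, 6 were over 8-fold higher in pineal gland and 1 in mixed tissue. For these shares the pineal value was the higher of the day and night libraries, with 0.1 CPM added to each value. A gene high in pineal gland at night alone could therefore pass. The pineal and mixed tissue values come from single libraries with no replicate check.

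The reverse view starts from genes chosen on uncultured glands alone and follows them into the comparison of the agents. Of 296 genes over 4-fold higher at night in Control, 286 could be tested in culture, and 63.6% of these had an estimate above 0, that is, higher with NE. Of 76 genes over 4-fold lower at night, 64 could be tested, and 31.2% had an estimate above 0, against 51.3% of all genes tested. The shifts were small. The median log2 fold change of NE over DBcAMP was 0.09 for the strong night genes and -0.22 for the strong day genes, against 0.01 for all genes, and 84.6% of the strong night genes had estimates within 1.5-fold. Single night genes passed the threshold in both directions, with 5 called higher with NE and 9 higher with DBcAMP, against 20 and 134 of the 15029 genes tested. Of the strong day genes 0 were called higher with NE and 1 higher with DBcAMP by edgeR at an adjusted p under 0.001. At an adjusted p under 0.05 the counts were 25 and 24 for night genes and 0 and 11 for day genes, against 242 and 670 for all genes tested. At an unadjusted p under 0.05 they were 54 and 37 for night genes and 3 and 20 for day genes, against 1351 and 1666.

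Strong Sham genes gave similar values. Of the 152 tested that were over 4-fold higher at night in Sham, 67.8% had an estimate above 0, with a median of 0.12, and of the 17 that were over 4-fold lower, 23.5% did. The tendency was not seen when all night genes were taken without regard to size. Of 985 genes called higher at night in Control and tested in culture, 466 had an estimate above 0, as did 220 of the 458 called lower. The share for strong Control night genes was 55.3% without NE replicate 3 and 57.7% without DBcAMP replicate 1.

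**Figure D5:**
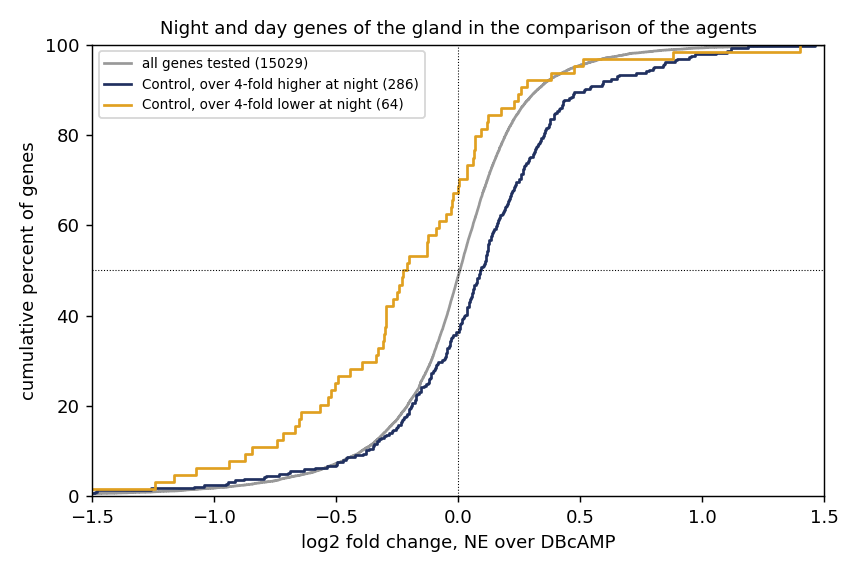
Cumulative percent of genes (y axis) against the log2 fold change of NE over DBcAMP (x axis, shown from -1.5 to 1.5) for all genes tested, genes over 4-fold higher at night in Control and genes over 4-fold lower at night in Control. The night curve lies slightly to the right of the curve for all genes, with medians of 0.09 and 0.01, and the day curve to the left, at -0.22.

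Genes that set pineal gland apart from mixed tissue were followed in the same way. Of the genes over 8-fold higher in pineal gland by day and night, 165 were tested, 59.4% had an estimate above 0 and 1 was called higher with NE and 2 higher with DBcAMP. Of 702 tested genes over 8-fold higher in mixed tissue, 36.9% had an estimate above 0, and 1 was called higher with NE and 11 with DBcAMP. Over all genes tested 51.3% had an estimate above 0, 0.133% were called higher with NE and 0.892% with DBcAMP, so these few calls are read no further. In these pools of whole glands, fewer cells of a type and less RNA per cell cannot be told apart. The part of tissue makeup in the differences between the agents was not tested.

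The called genes were also longer than the rest. The median length was 3266 bases for genes higher with NE, 2714 for genes higher with DBcAMP and 2079 for those over 4-fold higher, against 1929 for all genes tested. The median mean normalized count was 564, 647 and 67.7 in the same order, against 227 for all genes, so the former sets were also more deeply counted, while the genes over 4-fold higher with DBcAMP were not.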

How the data were processed

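RNA-Seq libraries of pineal organ culture were grouped by their treatment labels. The authors made stranded libraries of total RNA, aligned reads to rn4 with STAR 2.3.1y, and deposited raw read-pair counts per Ensembl gene, counted in 1 table per library under HTSeq's union rule. They also deposited RPKM values, used here for gene lengths and levels per length only. Reads that map to several genes are not counted, so near-identical genes are uncertain.

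The counts were analysed in R 4.3.3 by edgeR 4.0.16 (TMM normalization, quasi-likelihood test, Benjamini-Hochberg adjustment over all genes tested), on the 6 libraries compared. Genes whose normalized counts averaged 5 or more were tested, and a call is an adjusted p under 0.001. Replicates varied with a common coefficient of 9.09%. SEs are those implied by the test. DESeq2 1.42.0 was an alternative, and Python 3.11.15 was used for summaries. The scripts' tests recovered the changes set in simulated counts. CPM values are TMM-scaled within an experiment, and each night/day or treated/untreated comparison was fitted on its own 6 libraries. An exact permutation test of 3 libraries against 3 gives no p under 0.1. Replicates are separate pools per the labels.

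The tables do not pair identifiers with gene names, and 0 of 29516 identifiers matched the reference table, so gene symbols, gene lists, cell type markers and promoter sequences are not analysed here. The rule for naming genes was to take the 12 highest and the 12 lowest log2 fold changes among calls averaging 50 or more normalized counts, plus listed symbols. Its order was kept and 2 identifiers given at each end. The members and lists were chosen with earlier results of these data known. The night/day, Untreated and tissue groupings and their alternatives were chosen after seeing the data.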

Additional observations from a re-analysis of the deposited data

How the results depend on the processing

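The total of 154 genes became 436 with DESeq2 (80 higher with NE, 356 with DBcAMP; 2038 genes had no adjusted p), 575 without a count filter (120 and 455) and 58 with Benjamini-Yekutieli adjustment (2 and 56). With all 9 cultures in 1 model, 35 were higher with NE. Over 2-fold there were 160 genes without a filter and 44 with Benjamini-Yekutieli adjustment, and over 4-fold 13 with that adjustment and 11 where each library had to hold 10 read-pairs. Leaving out a culture library in turn gave 50 to 148 genes in all, 2 to 16 higher with NE, 48 to 135 higher with DBcAMP, 37 to 81 over 2-fold and 10 to 19 over 4-fold. Same-numbered NE and DBcAMP libraries did not deviate together (correlations of -0.07, -0.08 and -0.08), so no pairing by number was seen. Whether same-numbered libraries shared a batch is not given by the labels. The replicate block left 79 genes, 4 higher with NE and 75 with DBcAMP, and of the genes reported 4 and 75 were among them. Library size alone, which shifts the median of all genes by 0.05, left 109 genes. The causes were not tested. No setting reversed a named gene, whose NE and DBcAMP libraries did not overlap, and 12 of 58 recomputed values for those genes were no longer past the threshold. At these depths scarce genes over 4-fold rest on few read-pairs.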
